A study of Mus musculus with 6 samples.

Results

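The expression of 9 genes of lipid uptake and transport was followed in bulk RNA sequencing of lymphatic endothelial cells (LECs) sorted from the mouse dura mater. These genes are *Apoe*, *Cd36*, *Fabp4*, *Fabp5*, *Lpl*, *Pltp*, *Abca1*, *Abcg1* and *Lrp1*. They were taken from the 55401 genes of the expression tables by a rule that used their names alone. Wild-type male C57BL/6J mice had received an adeno-associated virus of serotype 9 (AAV) in the cisterna magna at 4 wk old. The virus encoded full-length murine VEGF-C, the growth factor of lymphatic vessels (AAV-VEGF-C), or, in AAV-CTRL (labelled AAV-Control), a soluble part of the receptor VEGFR-3 that lacks the VEGF-C binding site. LECs were gated as LYVE-1+, podoplanin+, CD31+ and CD45-. Each group had 3 libraries, numbered 1 to 3 for the experiment in which they were made, and each library pooled the meninges of 10 to 12 mice. The virus was delivered to the cerebrospinal fluid and not to LECs alone, so both groups carried an AAV and the comparison is between its 2 cargoes.

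Lipids travel outside cells as lipoproteins, particles in which apolipoproteins such as APOE hold cholesterol esters, triglycerides and phospholipids. Lipases on the vessel wall free fatty acids from these particles, scavenger receptors and fatty acid binding proteins take the fatty acids into and through the cell, LRP1 and its relatives internalise the remnants, and ABC transporters return cholesterol to the outside. Lymphatic vessels carry lipoproteins back from tissues to the blood, and LECs are known to take up and burn fatty acids. The same genes are used strongly by macrophages, adipocytes and blood capillaries, so marker genes of those cells were read in the same libraries.

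The total counts ran from 6530269 to 12399498 for the control libraries and from 564475 to 3261935 for AAV-VEGF-C, so every VEGF-C library was the shallower and depth and virus cannot be told apart. All 10 genes of the LEC marker list were detected in every library. *Pecam1*, *Cdh5* and *Tek* of this list are shared with blood endothelium, so the sum of the list is not specific to LECs. *Prox1*, the transcription factor that defines LECs, stood at 14.1, 6.44 and 7.45 TPM (a level corrected for gene length and library depth) in AAV-CTRL 1, 2 and 3 and at 9.62, 4.31 and 3.15 TPM in AAV-VEGF-C 1, 2 and 3. The sort markers *Lyve1*, *Pdpn* and *Pecam1* were at 16 to 121 TPM in AAV-CTRL and at 5.17 to 16.1 TPM in AAV-VEGF-C. The summed LEC markers reached 527 to 651 TPM in AAV-CTRL against 170 to 350 TPM in AAV-VEGF-C.

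Markers of other cells were present as well. The sum of 10 macrophage markers was 25.6, 2410 and 1479 TPM in AAV-CTRL 1, 2 and 3 and 20.7, 1158 and 718 TPM in AAV-VEGF-C 1, 2 and 3, so both libraries of experiment 1 held few macrophage marker reads and the other 4 held many, in cells gated as CD45-. In AAV-VEGF-C 1, the shallowest library, *Cd163* and *Adgre1* were at 0 and the other 8 macrophage markers were detected, such as *Csf1r* at 5.92 and *Pf4* at 6.94 TPM. In that library 3 counts would be 5.31 CPM, so a value of 0 does not show that a gene was absent. The sum of 8 fibroblast markers was 2223, 1066 and 1893 TPM in AAV-CTRL against 264, 422 and 875 TPM in AAV-VEGF-C. The sum of 8 blood endothelium markers ran from 98.9 to 837 TPM in AAV-CTRL and from 52.8 to 116 TPM in AAV-VEGF-C, where *Ly6c1* was at 0 in AAV-VEGF-C 1. The 6 adipocyte markers summed to 0.420 to 1.68 TPM in AAV-CTRL against 1.74 to 10.1 TPM in AAV-VEGF-C, with *Adipoq* at 0 in 5 of 6 libraries. Mural markers ranged from 79.8 to 264 and from 11.9 to 79.2 TPM, Schwann and glial markers from 26.3 to 51.2 and from 7.30 to 21.7 TPM, leukocyte markers from 1.06 to 30.4 and from 3.39 to 22.6 TPM, and erythroid markers from 9.21 to 182 and from 0 to 84.3 TPM in AAV-CTRL and AAV-VEGF-C. In bulk RNA, fewer cells of a type and less RNA per cell cannot be told apart.

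In the AAV-CTRL libraries, which held markers of other cells as well, the 9 genes covered 3 orders of magnitude. *Apoe*, the apolipoprotein of remnant particles, stood first with a mean of 4005 ± 3176 TPM (SD, n = 3), followed by the remnant receptor *Lrp1* with 231 ± 69.0 TPM and the phospholipid transfer protein *Pltp* with 92.2 ± 62.5 TPM. The ranges of these 3 genes did not overlap with each other. The cholesterol exporter *Abca1* had 56.3 ± 16.9 TPM, the fatty acid translocase *Cd36* 26.2 ± 22.8 TPM and the fatty acid binding protein *Fabp4* 12.3 ± 13.3 TPM. The exporter *Abcg1* had 9.06 ± 3.12 TPM, the lipoprotein lipase *Lpl* 6.80 ± 6.10 TPM and the binding protein *Fabp5* 3.72 ± 1.12 TPM. From *Pltp* downwards each gene overlapped in range with the next. Within libraries, *Abca1* was above *Cd36* in all 6, and *Cd36* was above *Fabp4* in 5 of 6, including all 3 of AAV-CTRL. Each of the other overlapping neighbours kept its order in only 2 of 3 AAV-CTRL libraries and is not separated by them. *Apoe* supplied from 63.5% to 94.9% of the summed TPM of the 9 genes in a library and was among the most abundant tested genes in all 6.

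**Figure D1:**
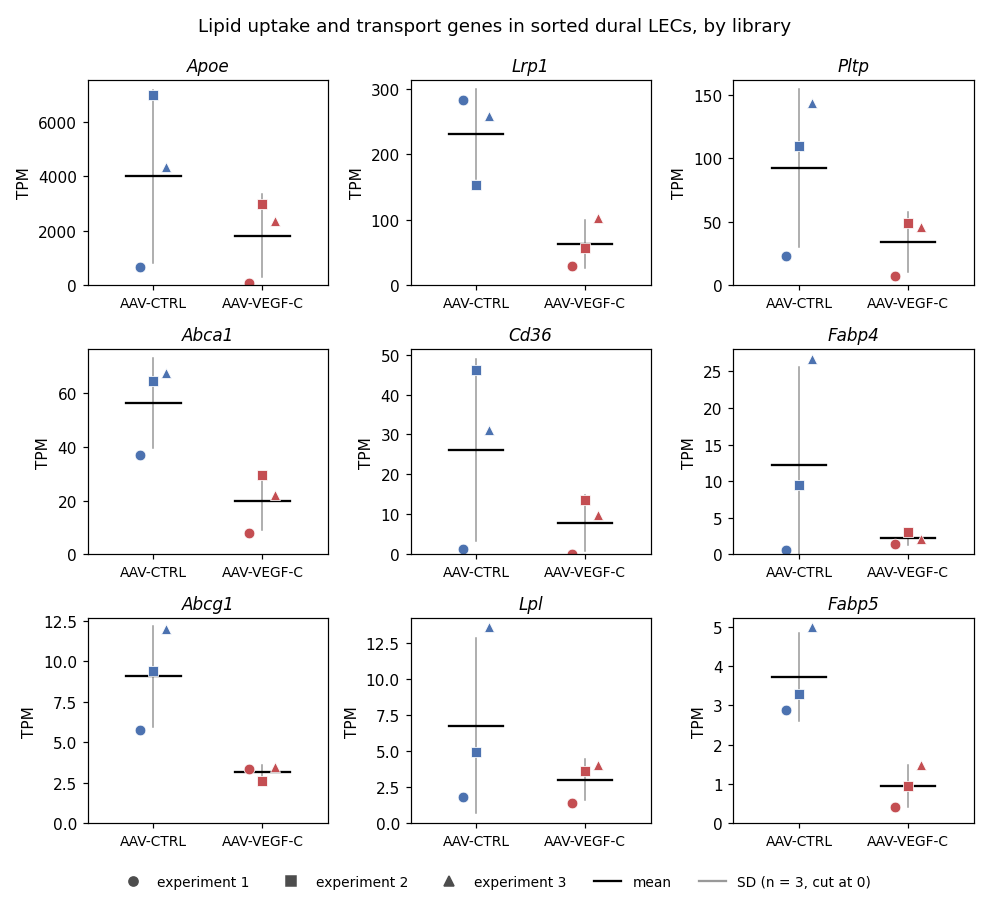
Level of each of the 9 genes in the 6 libraries, in TPM on linear axes that start at 0, with the experiment number shown by the symbol, the mean as a horizontal bar and the SD as a grey line (n = 3 per group). *Lrp1*, *Abca1*, *Abcg1* and *Fabp5* have all their AAV-VEGF-C points below all their AAV-CTRL points, and *Apoe*, *Pltp*, *Cd36*, *Abca1*, *Lpl* and *Fabp5* are lowest in experiment 1 of both groups.

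The question for the 2 cargoes was whether VEGF-C changed these genes. None of the 9 passed the test: by the quasi-likelihood test of edgeR with Benjamini-Hochberg adjustment over 17459 genes, 0 of 9 were higher and 0 of 9 were lower in AAV-VEGF-C, where 10.5% of all tested genes were called higher and 0.659% lower. At an unadjusted p under 0.05 the count was 0 of 9 in the main edgeR fit and with voom. Of all 17459 genes, 4905 and 5746 had such a p in these fits. In edgeR with the experiment number as a block it was 1 of 9 (*Cd36*), against 5554 of 17459 genes. With no filter it was 2 of 9 (*Cd36* and *Lrp1*), against 18412 of 44563. Without AAV-CTRL 1 and without experiment 1 it was 1 of 9 (*Fabp4*), against 5185 of 18198 and 5541 of 19222 genes. The count was 1 of 9 with DESeq2 (*Lrp1*), against 10609 of 44563 genes. It was 4 of 9 with limma on log2 TPM with either pseudocount (*Fabp5*, *Abca1*, *Abcg1* and *Lrp1*, all lower). There 6977 and 6385 of 17459 genes had such a p, with pseudocounts of 1 and 0.1. No tool called a member after adjustment. The fitted log2 fold change was negative for 7 genes and positive for *Fabp5* and *Lpl*. Its median over the 9 was -0.48. For the tested genes as a whole this median was -0.0037. It was -0.41 among the 7234 genes whose TPM averaged 5 or more over the libraries, called the more abundant genes here, of which 76.0% were negative and to which 7 of the 9 members belong. The p-values measure the spread between libraries from separate experiments.

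TPM and scaled counts gave different pictures. In TPM, which sums to the same total in every library, 4 of the 9 genes (*Fabp5*, *Abca1*, *Abcg1* and *Lrp1*) were lower in AAV-VEGF-C without overlap, each with a two-sided exact permutation p of 0.1, the smallest that 3 libraries against 3 allow. The same was true of 36.4% of all tested genes and of 61.4% of the more abundant genes. On CPM (counts relative to the library total) after TMM scaling, called scaled CPM, which sets the bulk of genes equal between libraries, only *Lrp1* was lower without overlap, 1 of 9 against 17.6% of tested genes and 33.3% of the more abundant genes. Within experiments, scaled CPM was lower in the AAV-VEGF-C library of all 3 experiments for *Cd36*, *Pltp*, *Abca1* and *Lrp1*, 4 of 9 against 27.9% of tested genes and 49.7% of the more abundant genes. For *Cd36*, experiment 1 set 0 counts in AAV-VEGF-C 1 against 4.82 scaled CPM in AAV-CTRL 1. In AAV-VEGF-C 1, 3 counts would be 5.31 CPM, so the direction of *Cd36* in experiment 1 cannot be read.

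**Figure D2:**
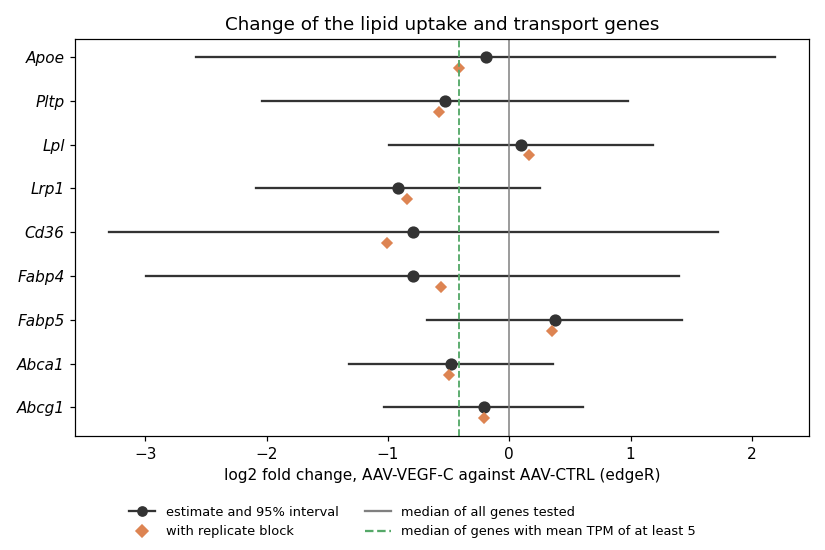
Fitted log2 fold change (AAV-VEGF-C against AAV-CTRL, edgeR, horizontal axis) of the 9 genes with its 95% confidence interval, with the estimate from the fit with the replicate block as a diamond below it. Every interval spans 0, and the dashed line at -0.41 marks the median of the more abundant genes.

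*Apoe* and *Pltp* are the carriers of the group, since APOE is the ligand by which remnant particles are cleared and PLTP moves phospholipids between particles. *Apoe* (ENSMUSG00000002985.16, GRCm38 chromosome 7, 19696109 to 19699188, minus strand) was at 673, 6998 and 4343 TPM in AAV-CTRL 1, 2 and 3 and at 88.3, 2973 and 2366 TPM in AAV-VEGF-C 1, 2 and 3. The groups overlapped, and in both the library of experiment 1 was far below the others. In scaled CPM the mean of experiments 2 and 3 was 5.71 times experiment 1 in AAV-CTRL against 12.5 times in AAV-VEGF-C. On the log2 scale the fitted change was -0.19 (SE 1.03, 95% interval -2.58 to 2.19, adjusted p = 0.936 by edgeR). Within experiments 1, 2 and 3 the AAV-VEGF-C library had 0.417, 0.766 and 1.29 times the scaled CPM of its control, so the direction was not shared.

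*Apoe* took 0.110%, 0.950% and 0.442% of all counts in AAV-CTRL against 0.0370%, 0.707% and 0.511% in AAV-VEGF-C. These shares rest on 209 counts at the least, in AAV-VEGF-C 1, and on 74623 at the most, in AAV-CTRL 2. Over the 6 libraries *Apoe* TPM had the same order as the summed macrophage markers, and macrophages are a strong source of APOE. The ratio of *Apoe* to that sum was 2.90, 2.94, 2.57 and 3.29 in AAV-CTRL 2 and 3 and AAV-VEGF-C 2 and 3, was 4.26 in AAV-VEGF-C 1 and was 26.3 in AAV-CTRL 1. The 673 TPM of *Apoe* in AAV-CTRL 1 therefore stood beside 25.6 TPM of macrophage markers, with 2223 TPM of fibroblast markers in the same library. The part of either cell type in *Apoe* was not tested.

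*Pltp* (ENSMUSG00000017754.13, chromosome 2, 164839518 to 164857711, minus strand) was at 22.7, 110 and 144 TPM in AAV-CTRL and at 7.17, 49.3 and 45.9 TPM in AAV-VEGF-C. It was lowest in experiment 1 of both groups, and the groups overlapped only through AAV-CTRL 1. Its log2 fold change was -0.53 (SE 0.65, 95% interval -2.04 to 0.98, adjusted p = 0.641 by edgeR), and with the experiment number as a block it was -0.58 (SE 0.27, adjusted p = 0.177). The ratios within experiments were 0.623, 0.739 and 0.640. Its gene overlaps *Ctsa* on the other strand, with a stretch of transcript shared at 90% identity or more, so the split of reads between these genes is uncertain. The library order of *Pltp* was that of the summed blood endothelium markers, whose part was not tested.

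*Lpl*, the lipase that endothelium displays at the vessel wall but mostly receives from other cells, was low. *Lpl* (ENSMUSG00000015568.16, chromosome 8, 68880491 to 68907448, plus strand) was at 1.84, 4.95 and 13.6 TPM in AAV-CTRL and at 1.39, 3.64 and 4.03 TPM in AAV-VEGF-C. The AAV-CTRL range enclosed 2 of the 3 AAV-VEGF-C libraries. The fitted log2 change was 0.10 (SE 0.47, 95% interval -0.99 to 1.18, adjusted p = 0.928 by edgeR), with ratios of 2.20, 1.37 and 0.577 within experiments, and its sign turned to -0.080 when libraries were scaled by total counts alone. It rested on 11, 46 and 81.7 counts in AAV-VEGF-C. The log2 ratio of *Lpl* to *Gpihbp1*, the endothelial protein that holds the lipase, was -0.84 ± 0.55 in AAV-CTRL against -0.33 ± 1.66 in AAV-VEGF-C (SD, n = 3, exact permutation p = 0.9).

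*Lrp1*, the large endocytic receptor for APOE-bearing remnants, had the most negative edgeR fold change of the 9 without the block. *Lrp1* (ENSMUSG00000040249.15, chromosome 10, 127538161 to 127621148, minus strand) was at 283, 153 and 258 TPM in AAV-CTRL and at 29.1, 57.4 and 103 TPM in AAV-VEGF-C. The groups did not overlap (231 ± 69.0 against 63.1 ± 37.2 TPM, n = 3, exact permutation p = 0.1). In scaled CPM the libraries stood at 7589, 3618 and 3676 in AAV-CTRL and at 2387, 2261 and 3227 in AAV-VEGF-C, so the groups were still apart, if narrowly at 3618 and 3227. The log2 fold change was -0.92 (SE 0.50, 95% interval -2.09 to 0.25, adjusted p = 0.276 by edgeR) and the ratios within experiments were 0.315, 0.625 and 0.878. Without the libraries of experiment 1, an alternative chosen after the data were seen, it was -0.48 (adjusted p = 0.615 by edgeR).

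*Lrp1* had 1033 counts or more in every library, the highest minimum of the 9 genes, and it followed the summed fibroblast markers. The order of the 6 libraries was identical, and the ratio of *Lrp1* to that sum lay between 0.110 and 0.143, across libraries whose *Lrp1* level ran from 29.1 to 283 TPM. The largest parts of that sum were *Col1a1* and *Col1a2*, with means of 653 and 567 TPM in AAV-CTRL. The log2 fold changes of the 7 tested fibroblast markers ran from -1.85 to -0.65. Fibroblasts are a known source of LRP1, and their part in the level was not tested. The non-coding gene *Gm16217* overlaps *Lrp1* on the other strand. The ligand to receptor ratio, *Apoe* to *Lrp1* on the log2 scale, was 1.25, 5.52 and 4.07 in AAV-CTRL against 1.6, 5.69 and 4.52 in AAV-VEGF-C. It was higher in AAV-VEGF-C in 3 of 3 experiments, by 0.32 on average, yet differed far more between experiments than between viruses (exact permutation p = 0.7, 0.9 after adjustment over 5 ratios).

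*Cd36*, *Fabp4* and *Fabp5* are the fatty acid genes of the group. CD36 brings long-chain fatty acids across the membrane of capillary endothelium, adipocytes and macrophages. *Cd36* (ENSMUSG00000002944.15, chromosome 5, 17781690 to 17888801, minus strand) was at 1.36, 46.1 and 31.0 TPM in AAV-CTRL and at 0, 13.5 and 9.91 TPM in AAV-VEGF-C. Experiment 1 was lowest in both groups, with 30 counts in the control and 0 in AAV-VEGF-C 1, where 3 counts, the limit that a count of 0 allows, would be 5.31 CPM. The log2 fold change was -0.79 (SE 1.08, 95% interval -3.30 to 1.72, adjusted p = 0.681 by edgeR). With the experiment number as a block it was -1.01 (SE 0.38, adjusted p = 0.104), and the ratios within experiments 2 and 3 were 0.593 and 0.495. No ratio can be read from experiment 1.

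The order of *Cd36* over the libraries was again that of the macrophage marker sum, and its ratio to that sum ran from 0 to 0.0533. *Apoe* and *Cd36* were thus high in the same 4 libraries, those that held the macrophage markers. The lipid droplet coat gene *Plin2* from the wider lists had this order too, at 4.94, 54.6 and 31.4 TPM in AAV-CTRL against 1.45, 22 and 15.3 TPM in AAV-VEGF-C. Experiment 1 was the lowest of both groups in scaled CPM for *Apoe*, *Cd36*, *Pltp* and *Abca1*, 4 of the 9 genes against 19.2% of tested genes and 26.4% of the more abundant genes. This comparison and those of library order with marker sums were chosen after the values were seen, and they are descriptions without a test. In the latter, made for the 9 members and *Plin2* beside 9 marker lists, *Fabp5* also shared the order of the mural and of the Schwann and glial markers. The share of all tested genes with such an order was not counted.

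**Figure D3:**
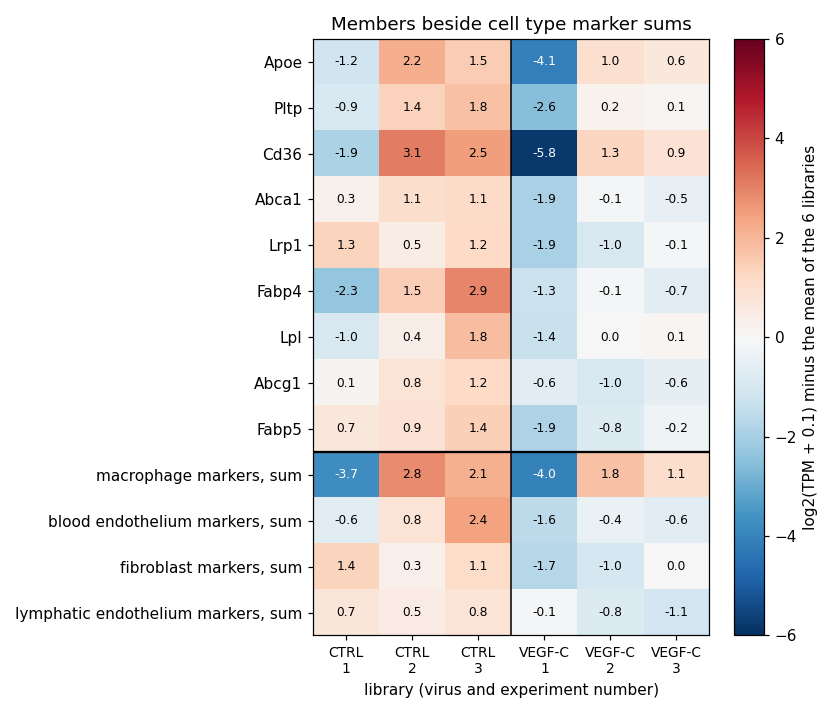
Level of the 9 genes and of the summed markers of 4 cell types in each library, as log2(TPM + 0.1) minus the mean of the 6 libraries, with the value printed in each cell and red for above and blue for below that mean. *Apoe* and *Cd36* change with the macrophage markers, low in experiment 1 of both groups, whereas *Lrp1* changes with the fibroblast markers.

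*Fabp4* and *Fabp5* encode related carriers of fatty acids in the cytosol, FABP4 in capillaries, adipocytes and macrophages and FABP5 in many epithelia and endothelia. *Fabp4* (ENSMUSG00000062515.3, chromosome 3, 10204088 to 10208576, minus strand) was at 0.592, 9.47 and 26.7 TPM in AAV-CTRL and at 1.35, 3.07 and 2.11 TPM in AAV-VEGF-C. AAV-CTRL spread widely around the narrow AAV-VEGF-C values. The AAV-VEGF-C levels rested on 4, 8 and 16 counts, and the ratios within experiments went from 9.59 in experiment 1, which sets 4 counts against 6, to 0.585 and 0.231 in experiments 2 and 3. *Fabp4* had a log2 fold change of -0.80 (SE 0.95, 95% interval -3.0 to 1.40, adjusted p = 0.629 by edgeR). Without experiment 1 it was -1.62 (SE 0.54, unadjusted p = 0.0178, adjusted p = 0.0973 by edgeR).

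*Fabp5* (ENSMUSG00000027533.10, chromosome 3, 10012548 to 10016607, plus strand), its neighbour on the chromosome, was at 2.87, 3.30 and 4.99 TPM in AAV-CTRL and at 0.413, 0.952 and 1.49 TPM in AAV-VEGF-C. In TPM the groups did not overlap and AAV-VEGF-C was the lower (3.72 ± 1.12 against 0.953 ± 0.540, n = 3, exact permutation p = 0.1). In scaled CPM the order of the groups was the opposite, with 4.34, 5.72 and 5.01 in AAV-CTRL against 6.93, 7.88 and 5.18 in AAV-VEGF-C, higher in AAV-VEGF-C in 3 of 3 experiments. The log2 fold change of the counts was 0.37 (SE 0.45, 95% interval -0.68 to 1.43, adjusted p = 0.635 by edgeR), and limma on log2(TPM + 1) gave -1.29 (adjusted p = 0.0738). No direction can therefore be given for *Fabp5*, which rested on 3, 11 and 17.9 estimated counts in AAV-VEGF-C. Its TPM per count, relative to *Apoe*, differed between libraries. In AAV-CTRL 1, 27 counts of *Fabp5* stood for 2.87 TPM and 7204 of *Apoe* for 673 TPM. In AAV-VEGF-C 2, 11 counts stood for 0.952 TPM and 10149 for 2973 TPM. The cause was not tested. The log2 ratio of *Fabp4* to *Fabp5* in TPM needs no scaling between libraries but carries this difference. It was 0.60 ± 2.38 in AAV-CTRL against 1.19 ± 0.62 in AAV-VEGF-C (SD, n = 3, exact permutation p = 0.8). The log2 ratio of *Cd36* to *Fabp4* was 1.08, 2.27 and 0.21 in AAV-CTRL against 2.11 and 2.18 in AAV-VEGF-C 2 and 3. The pseudocount sets the last ratio in AAV-VEGF-C 1, which had no *Cd36* count, so its difference between groups is not read (-1.05 with that library and 0.95 without it).

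*Abca1* and *Abcg1* export cholesterol, ABCA1 to lipid-poor apolipoprotein A-I and ABCG1 to mature particles. *Abca1* (ENSMUSG00000015243.4, chromosome 4, 53030787 to 53159895, minus strand) was at 36.9, 64.5 and 67.5 TPM in AAV-CTRL and at 7.97, 29.4 and 22.1 TPM in AAV-VEGF-C. In TPM the groups were apart (56.3 ± 16.9 against 19.8 ± 10.9, n = 3, exact permutation p = 0.1), whereas in scaled CPM, at 619, 939 and 632 against 416, 714 and 436, they overlapped through experiment 2 of AAV-VEGF-C. Within experiments the ratios were 0.672, 0.760 and 0.690, the narrowest spread of any member. The log2 fold change was -0.48 (SE 0.36, 95% interval -1.32 to 0.36, adjusted p = 0.427 by edgeR), and -0.50 (adjusted p = 0.284) with the block. It lay near the median of -0.41 of the more abundant genes.

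*Abcg1* (ENSMUSG00000024030.7, chromosome 17, 31057675 to 31117988, plus strand) was at 5.78, 9.43 and 12.0 TPM in AAV-CTRL and at 3.35, 2.63 and 3.47 TPM in AAV-VEGF-C. The groups were apart in TPM (9.06 ± 3.12 against 3.15 ± 0.452, n = 3, exact permutation p = 0.1) and overlapped in scaled CPM. By log2 fold change *Abcg1* stood at -0.21 (SE 0.35, 95% interval -1.03 to 0.61, adjusted p = 0.742 by edgeR), and it was 0.14 with scaling on the 2000 most abundant genes, so its direction hung on the scaling. The ratios within experiments were 1.65, 0.821 and 0.549. The small gene *Gm25447* overlaps it on the same strand. The log2 ratio of *Abca1* to *Abcg1* was 2.63 ± 0.14 in AAV-CTRL against 2.43 ± 1.12 in AAV-VEGF-C (SD, n = 3, exact permutation p = 0.8), nearly constant in the controls and spread in AAV-VEGF-C, where *Abcg1* had 17, 50 and 93 counts.

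*Abca1* and *Pltp*, known targets of the liver X receptors (LXR), the nuclear receptors that sense oxysterols, had ratios of 0.672, 0.760 and 0.690 and of 0.623, 0.739 and 0.640 within experiments. They were set side by side after their values were seen, with no test of likeness, and *Abcg1*, a known LXR target too, had 1.65, 0.821 and 0.549. The 250 bases before the RefSeq start of each gene (GRCm38.p6, minus strand, 5′ to 3′) are shown for these 2 genes, chosen after their values were seen. *Cd36* and *Lrp1*, which also had lower scaled CPM in all 3 experiments, are not printed. Capitals mark the motifs found: TATAAA (a core promoter box), GGGCGG (GC box), CACGTG (E-box) and AGGTCA (a nuclear receptor half-site). Each motif was searched on both strands, with no overlap between motifs found here. These occur in 12.4%, 32.7%, 6.02% and 14.0% of 32851 promoters of the same length.
Abca1, chr4:53159896-53160145: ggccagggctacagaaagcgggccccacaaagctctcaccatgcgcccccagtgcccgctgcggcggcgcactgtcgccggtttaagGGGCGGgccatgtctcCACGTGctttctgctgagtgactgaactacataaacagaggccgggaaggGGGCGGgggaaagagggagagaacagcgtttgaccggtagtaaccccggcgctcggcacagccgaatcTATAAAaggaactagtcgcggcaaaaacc
Pltp, chr2:164857709-164857958: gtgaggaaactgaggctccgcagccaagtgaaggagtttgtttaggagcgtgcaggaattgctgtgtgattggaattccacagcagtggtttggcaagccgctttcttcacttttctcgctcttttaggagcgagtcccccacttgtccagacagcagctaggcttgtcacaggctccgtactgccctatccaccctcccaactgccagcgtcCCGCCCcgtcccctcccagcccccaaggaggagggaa
The *Abca1* promoter held 1 copy of TATAAA, 2 GC boxes and 1 E-box in a window of 61.6% GC. The *Pltp* promoter held 1 GC box on the opposite strand, read here as CCGCCC, in a window of 57.6% GC, and its last 3 bases touch the annotated first exon. Neither window held the half-site AGGTCA. This says only that these exact letters are not in them. Receptor sites with other letters were not searched for and may be present. Of the other members, *Apoe*, *Cd36* and *Lrp1* also had an entry. The *Cd36* window held 2 GC boxes and 1 half-site, with 43.2% GC. The *Lrp1* window held 1 GC box, with 67.2% GC, and the *Apoe* window held none of these motifs.

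Around the 9 members, 59 further lipid genes were read in 7 lists by role, of which 54 were tested. By edgeR 1 of the 54 was higher (*Ppargc1a*) and 1 was lower (*Apod*), against 10.5% and 0.659% of all tested genes. The median log2 fold change over the 54 was -0.36, with 36 negative. It was -0.0037 over all tested genes and -0.41 over the more abundant genes, of which 76.0% were negative.

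*Apod* encodes apolipoprotein D, a lipocalin that binds small lipids and is made by fibroblasts and perineurial cells among others. It was at 111, 60.7 and 202 TPM in AAV-CTRL and at 11.7, 14.9 and 35.2 TPM in AAV-VEGF-C, with no overlap. Its fitted change was -1.48 on the log2 scale (SE 0.36, adjusted p = 0.0390 by edgeR), and the ratios within experiments were 0.326, 0.5 and 0.325. It fell by 1.41 with the block (adjusted p = 0.0144 by edgeR), and the call was lost without any 1 of the 6 libraries, with a log2 fold change from -1.81 to -1.40 and adjusted p from 0.0647 to 0.0977. Without AAV-CTRL 2 or AAV-CTRL 3 edgeR called 0 genes in the whole table, with 5071 and 4627 at an unadjusted p under 0.05. Of the 7 fibroblast markers tested, 2 were also called lower (median log2 fold change -1.16), and 4 with the block, and the part of fibroblasts in *Apod* was not tested. Of the 6 carriers 3 were tested, and the other two were not called.

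*Ppargc1a*, the co-activator of mitochondrial biogenesis and fatty acid oxidation, was at 0.874, 0.459 and 0.640 TPM in AAV-CTRL and at 4.39, 1.72 and 0.968 TPM in AAV-VEGF-C, higher in all 3 AAV-VEGF-C libraries. Its log2 fold change was 3.37 (SE 0.84, adjusted p = 0.0414 by edgeR), with the block 2.88 (adjusted p = 0.0105), and without AAV-VEGF-C replicate 1 it was 1.90 (adjusted p = 0.0603). This call too was lost without any 1 of the 6 libraries, with adjusted p from 0.0554 to 0.109. Its raw counts, 29, 27 and 37 for the controls and 40, 24 and 36 for AAV-VEGF-C, were nearly equal in libraries of very unequal depth. Reads in 2187 olfactory, vomeronasal and taste receptor, keratin-associated and defensin genes, which endothelium is not known to use, were also higher, at 165 to 298 CPM in AAV-CTRL against 2996 to 7190 CPM in AAV-VEGF-C. The part of such background in *Ppargc1a* was not tested. The gene also overlaps 3 annotated genes on its own strand and 1 on the other, so its counts are uncertain.

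Among 9 lipoprotein receptor genes 0 were called either way. The reelin and APOE receptor *Lrp8* was at 4.51, 2.67 and 5.17 TPM in AAV-CTRL and at 24.6, 10.2 and 6.10 TPM in AAV-VEGF-C. Its log2 fold change was 2.31 (SE 0.71, adjusted p = 0.0794 by edgeR), and it was called with the block (2.02, adjusted p = 0.0240). The raw counts of *Lrp8* were 129, 67 and 241 in AAV-CTRL. They were 70, 70 and 82 in AAV-VEGF-C, nearly equal in libraries of very unequal depth. The part of background reads in *Lrp8* was not tested. The VLDL receptor *Vldlr* gave -1.10 (adjusted p = 0.0842) and the HDL receptor *Scarb1* -0.78 (adjusted p = 0.430). *Mylip*, a ubiquitin ligase induced by LXR, gave -0.60 (adjusted p = 0.192). The receptors thus pointed both ways with no call that stood in the unblocked fit.

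Of the lipase partners, 5 of 6 were tested and 0 were called: *Gpihbp1* gave a log2 fold change of 0.079 (adjusted p = 0.956 by edgeR), the endothelial lipase *Lipg* 2.15 (adjusted p = 0.114) and the lipase inhibitor *Angptl4* -0.26 (adjusted p = 0.759). *Lipg* was at 0.0710 to 0.711 TPM in AAV-CTRL against 0.331 to 1.40 TPM in AAV-VEGF-C. Of 10 genes of fatty acid uptake and activation, 9 were tested and 0 were called, with *Slc27a1* at 0.081, *Slc27a3* at -0.10 and *Cav1*, the coat protein of caveolae, at -0.80 (adjusted p of 0.454 or more by edgeR). *Fabp3*, the heart fatty acid binding protein, did not pass the filter on low counts and was at 0.829 to 2.46 TPM in AAV-CTRL against 0 to 1.73 TPM in AAV-VEGF-C.

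The nuclear receptors that drive lipid genes showed no call. *Nr1h2*, which encodes LXR beta, was the most abundant of those named, at 36.5 to 58.7 TPM in AAV-CTRL against 13.6 to 30.6 TPM in AAV-VEGF-C. Its fitted change was -0.48 on the log2 scale (SE 0.27, adjusted p = 0.285 by edgeR). *Nr1h3*, which encodes LXR alpha, gave -0.0051 (adjusted p = 0.998) and *Pparg* 0.66 (adjusted p = 0.619). All 9 tested genes of intracellular lipid handling had a negative value, between -0.87 and -0.31, and 0 were called. Their median was -0.46, beside -0.41 for the more abundant genes, of which 76.0% were negative. *Plin2* gave -0.55 (adjusted p = 0.729), the lysosomal cholesterol exporter *Npc1* -0.44 (adjusted p = 0.430) and the lysosomal lipase *Lipa* -0.50 (adjusted p = 0.597). Of 10 sterol synthesis genes 0 were called, with the master regulator *Srebf2* at -0.38 (adjusted p = 0.375).

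**Figure D4:**
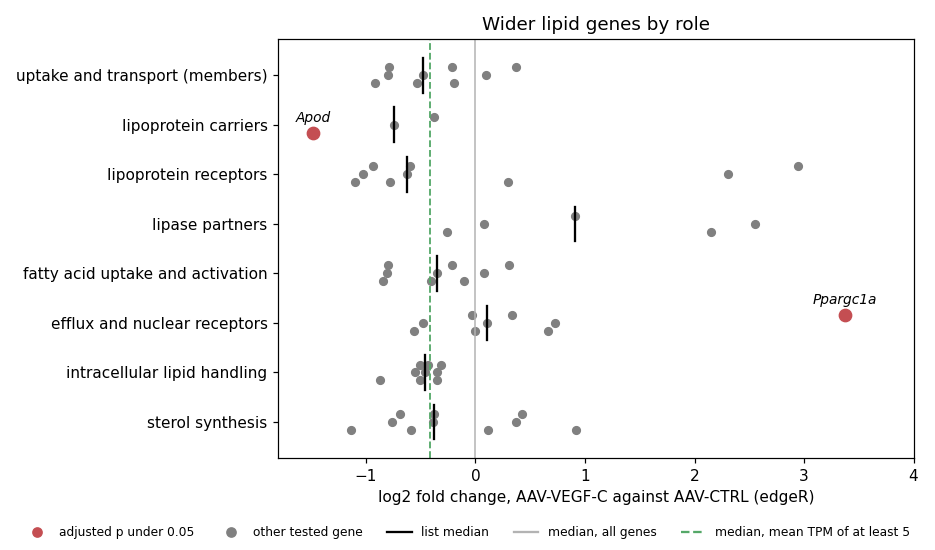
Fitted log2 fold change (AAV-VEGF-C against AAV-CTRL, edgeR, horizontal axis) of every tested gene of the 9 members and of the 7 wider lists (rows), with a black bar at each list's median. *Apod* at -1.48 and *Ppargc1a* at 3.37 are the genes with an adjusted p under 0.05, and 6 of the 8 rows have a median at or below 0.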

How the data were processed

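RNA of sorted dural LECs was sequenced in 3 AAV-CTRL and 3 AAV-VEGF-C libraries made with a stranded total RNA kit for low input. The deposited tables hold estimated counts of each gene, which the authors left unscaled, and TPM, which the authors corrected for gene length and library total. The submitters' processing notes name FastQC, Trimmomatic, DRAGEN, Picard and mm10. The counting program, the use of strand and of molecular identifiers in counting are not given in the sources used here, so overlapping genes are uncertain. Of the gene identifiers, 98.1% matched GENCODE M21 on GRCm38, which gave the positions. Promoters came from RefSeq (GRCm38.p6), where 5 of 9 members matched.

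The estimated counts were rounded, and genes passing filterByExpr of edgeR (4.0.16, R 4.3.3) were TMM-scaled. Groups were compared by its quasi-likelihood test, and p was adjusted after Benjamini and Hochberg over all tested genes at 0.05. The SE is the size of the log2 fold change divided by the root of F. The study used DESeq2, run here as an alternative (1.42.0), beside limma (3.58.1) on log2(TPM + 1) and log2(TPM + 0.1), voom, other scalings and filters, depth drawn down, and each library left out. The exact permutation tests were two-sided, with a smallest p of 0.1. Ratios used TPM + 0.1. Intervals of counting error and the limit of 3 counts cover counting error only.

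Both groups carry experiment numbers 1 to 3, which the design text ties to repeats of the experiment. For libraries of 1 number, deviations from the group mean correlated over genes at 0.37, 0.28 and 0.15. AAV-CTRL 3 correlated more with AAV-VEGF-C 2 (0.22) than with AAV-VEGF-C 3, so its partner was taken from the labels. The numbers served as pairs in the replicate block and in the ratios within experiments. The main fit and the permutation tests did not use them. Libraries of a group all differed beyond sampling noise (lowest chi-square 9.61 per degree of freedom). The scripts were tested on simulated data. The members and lists were chosen with earlier results of these data known. Named are all members, a fixed choice of genes of the wider lists (2 of them are not reported here) and any wider gene with an adjusted p under 0.05, plus the LEC markers *Lyve1*, *Pdpn*, *Pecam1* and *Prox1*. Genes named beyond this rule were chosen after their values were seen.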

Additional observations from a re-analysis of the deposited data

How the results depend on the processing

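Under all 18 alternatives 0 of the 9 members were called higher and 0 lower, and the lowest adjusted p of any member was 0.0696 (*Lrp1*, limma on log2(TPM + 1)). Over all genes edgeR called 0 without AAV-CTRL 2, without AAV-CTRL 3 and with counts drawn down, 8 without AAV-VEGF-C 2 and 9 under a TPM filter (a mean of 5 or more), so these alternatives say little of the members. Signs turned where scaling or few libraries decided them. *Apoe* was 0.042 when scaled on the 2000 most abundant genes, 0.072 under the TPM filter and 0.20 with counts drawn down to the smallest total, *Abcg1* was 0.14, 0.14 and 0.88 under the same 3, and *Pltp* was 0.072 drawn down. *Lpl* was -0.080 with library size alone, -0.15 with no filter, -0.71 and -0.85 in limma with pseudocounts of 1 and 0.1, -0.29 without experiment 1, and 2.48 drawn down. *Fabp5* was -1.29 and -1.97 in limma. With each library left out in turn, *Apoe* ran from -0.97 to 0.73, *Fabp4* from -1.39 to 0.044 and *Lpl* from -0.30 to 0.51. The cause was not tested. *Cd36*, *Abca1* and *Lrp1* kept a negative sign under all 18. *Fabp5* and *Lpl* were not tested under the TPM filter, nor *Fabp4* and *Fabp5* after drawing down.

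The difference in the log2 ratio of *Fabp4* to *Fabp5* was -0.033 with TPM + 1 and -0.33 from counts, and ran from -0.76 to 1.49 with a library left out. The ratios *Cd36* to *Fabp4* (-2.06 to 0.95), *Abca1* to *Abcg1* (-0.70 to 0.40), *Lpl* to *Gpihbp1* (-0.43 to 1.11) and *Apoe* to *Lrp1* (-0.86 to 1.49) also changed sign.

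Of the wider lipid genes, those called higher, 1 in the main result, numbered 5 with no filter, 3 with DESeq2, 2 with voom and 2 with the replicate block, where 9382, 5534, 2380 and 2241 of all genes were called higher against 1835, and 0 under the TPM filter, with either limma fit and with counts drawn down. Those called lower, also 1, numbered 6 with no filter, 3 with DESeq2 and 2 with voom, where 1175, 471 and 267 of all genes were called lower against 115, and 0 when scaled on the 2000 most abundant genes, under the TPM filter, drawn down and without experiment 1. With a library left out they ran from 0 to 1 and from 0 to 0. The replicate block added *Lrp8* to the calls, called 0 of 9 members and lost neither *Apod* nor *Ppargc1a*. Drawn-down counts left 7581 genes to test, with 374 at an unadjusted p under 0.05. Depth was lowest in AAV-VEGF-C 1, where 3 counts are 5.31 CPM.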
